A study of Mus musculus with 6 samples.

Results

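The genes described here encode the mitochondrial respiratory chain and ATP synthase. They are every gene whose symbol starts with Nduf, Uqcr, Atp5, Cox4 to Cox8 or mt-, which gave 101 genes of the 27998 in the files. Of these, 88 lie in the nuclear genome and 13 on the mitochondrial chromosome. The nuclear genes comprised 38 Nduf genes of complex I, 7 Ndufaf genes for assembly of complex I, 8 Uqcr genes of complex III, 18 Cox genes of complex IV and 17 Atp5 genes of ATP synthase. The 13 mitochondrial genes comprised 7 for complex I, 1 for complex III, 3 for complex IV and 2 for ATP synthase. The rule reads symbols, so it keeps Ndufa4 with complex I although Ndufa4 is known as a subunit of complex IV, and it keeps Atp5sl, which is known as the assembly factor Dmac2, with ATP synthase. Complex II and cytochrome c are not part of this set and are given as a comparison list.

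The cells came from aortas of C57B/6J mice of 18 weeks, taken apart with collagenase and DNase, passed through a strainer, freed of red cells by ACK lysis and profiled by droplet single-cell RNA sequencing with a 3′ tag kit. That assay tags each captured RNA near its 3′ end with a random barcode, the unique molecular identifier (UMI), so that copies of 1 molecule count once. There were 6 samples, 3 labelled Control, which received a normal diet, and 3 labelled high-fat diet. The labels give neither the sex nor the number of mice behind a sample, and nothing says that the samples of a diet are separate animals, so a p-value here measures the spread between these samples.

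The respiratory chain passes electrons from NADH through complex I, ubiquinone, complex III, cytochrome c and complex IV to oxygen, and pumps protons across the inner mitochondrial membrane. ATP synthase lets the protons flow back and makes ATP. The mitochondrial genes encode core subunits that sit in the membrane, and the nuclear genes encode the other subunits, which are imported. Several subunits of complex IV exist as pairs of a widely expressed gene and a restricted paralog. Cox6a2, Cox7a1 and Cox8b are the forms of heart and skeletal muscle, with Cox7a1 and Cox8b also known from brown fat. Cox4i2 is known from lung and from low oxygen, Cox6b2 from testis, and Ndufa4l2, a paralog of Ndufa4, is induced by hypoxia-inducible factor and is used as a marker of pericytes. Contractile muscle is rich in mitochondria, whereas much of the ATP of vascular smooth muscle and endothelium is made by glycolysis.

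The files held 62838 cells, between 6623 and 18138 per sample, with 41388034 to 83886418 UMIs per sample and a median of 3856 to 5955 UMIs per cell. After cells under 300 genes, cells with 20% or more of their UMIs from mt- genes and called doublets were left out, 58042 cells remained, and 47734 of them received a class from marker genes that include no respiratory chain gene. Each deposited matrix joins 2 sets of barcodes, told apart by a suffix of 1 or 2. What the suffix stands for is not given in the sources used here. RNA of heart muscle, skeletal muscle and red cells was found in cells of every class, so a marker counted as present only above what that free RNA would give. Pairs of samples shared 26 to 127 barcodes. Of the 101 genes, 99 passed the filter on low counts when classes were compared. Cox7b2 (25 UMIs) and Cox8c (4 UMIs) did not.

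Where in the aorta the respiratory chain genes were most used was asked first. Among the 10 classes with enough cells in all 6 samples under the 20% limit, smooth muscle cells held the largest mean share of both gene groups and erythroid cells the smallest. The 88 nuclear genes took 2.93% ± 0.1004 (SD, n = 6 samples) of all UMIs that are not mt- in smooth muscle cells, 2.84% ± 0.108 in pericytes, 2.70% ± 0.445 in Schwann cells, 2.69% ± 0.167 in mesothelial cells and 2.53% ± 0.162 in endothelial cells. The share was 2.47% ± 0.210 in T cells, 2.31% ± 0.149 in macrophages, 2.25% ± 0.218 in B cells, 2.19% ± 0.0638 in fibroblasts and 1.07% ± 0.268 in erythroid cells. No pair of neighbours in this order passed the test of their difference (exact sign-flip permutation test within samples, smallest adjusted p = 0.141, with 0.03125 the smallest unadjusted p the design allows). Classes with fewer cells reached higher nuclear shares, at 7.16% to 11.1% in cardiomyocytes, 5.76% to 7.05% in skeletal muscle cells (4 samples) and 5.48% to 7.48% in adipocytes (3 samples).

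The mt- genes followed a partly different order in the same 10 classes. They took 7.03% ± 0.791 of all UMIs in smooth muscle cells, 6.46% ± 1.30 in macrophages, 5.92% ± 1.41 in pericytes and 5.88% ± 1.29 in Schwann cells. Endothelial cells had 5.48% ± 1.38, mesothelial cells 5.34% ± 0.418, B cells 5.07% ± 0.814, fibroblasts 4.65% ± 0.622, T cells 4.60% ± 0.749 and erythroid cells 3.48% ± 1.17. Macrophages were thus second by mitochondrial share and seventh by nuclear share among the 10. Epithelial cells, in 4 samples, had 7.33% to 10.7%. No pair of neighbours in this order passed the same exact permutation test (smallest adjusted p = 0.188).

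**Figure D1:**
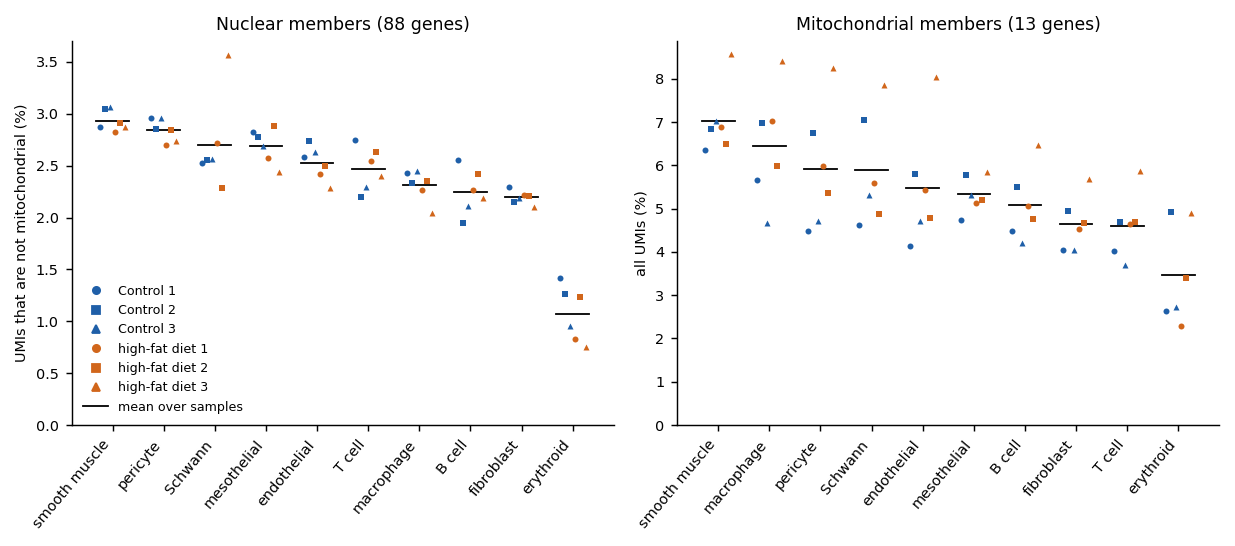
Share of UMIs from nuclear respiratory chain genes (percent of UMIs that are not mt-) and from mt- genes (percent of all UMIs) in each of the 10 tested cell classes, ordered by mean. Points are samples, blue for Control and orange for high-fat diet, and the bar is the mean of 6 samples. Smooth muscle cells lead both panels at 2.93% and 7.03%, and erythroid cells are last in both at 1.07% and 3.48%.

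Over the 10 classes, erythroid cells included, the ratio of the highest to the lowest class was smaller for mt- genes than for nuclear ones. Erythroid cells weigh on this ratio. Their summed nuclear share was 1.07%, beside 2.19% in fibroblasts, the next lowest class. Their mt- share was 3.48%, beside 4.60% in T cells. The ratios were not computed without erythroid cells, so the contrast is not read as a trait of the 2 genomes. Levels are given as CPM, the UMIs of a gene scaled to the total UMIs of the class in that sample, and are compared for 1 gene across classes, not between genes. Over the 13 mt- genes, the highest class was a median of 2.12 times the lowest (1.71 to 2.55). Over 80 nuclear genes without the restricted paralogs it was 3.08 times (2.11 to 9.79). Of the restricted paralogs, Ndufa4l2 spread over 106 times, Cox4i2 over 78.8 times and Cox6b2 over 15.2 times. Cox6a2 (1.93 times), Cox7a1 (2.12 times) and Cox8b (2.52 times) spread less than that median over these 10 classes, which do not include cardiomyocytes.

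The gene of each nuclear group with the highest mean CPM over the 10 classes was highest, among these classes, in smooth muscle cells for complex I, complex III and ATP synthase. Ndufa2, an accessory subunit of complex I, stood at 709 ± 49.4 CPM in smooth muscle cells (n = 6) and at 238 in erythroid cells. Uqcrh, the hinge subunit of complex III, stood at 855 ± 70.3 and 324. Atp5l, subunit g of ATP synthase, stood at 871 ± 25.6 and 369. Cox4i1, the widely expressed form of subunit 4, was at 1176 in Schwann cells, 1172 ± 94.7 in smooth muscle cells and 512 in erythroid cells. Ndufaf3, an assembly factor of complex I, was highest in pericytes at 57.6 CPM and lowest in erythroid cells at 15.2.

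Among the 10 classes, smooth muscle cells were highest in 3 of the 5 mitochondrial genes named. mt-Atp6, subunit a of ATP synthase, reached 15792 ± 1702 CPM in smooth muscle cells, 10343 in T cells and 7453 in erythroid cells. mt-Nd1, a core subunit of complex I, reached 8125 ± 1064 in smooth muscle cells, 7061 in macrophages and 4608 in T cells. mt-Cytb, the only mitochondrial gene of complex III, reached 7958 ± 958 in smooth muscle cells and 4392 in T cells. mt-Co1, the catalytic subunit of complex IV, was instead highest in macrophages at 8801 ± 1180, above smooth muscle cells at 8260 ± 863, a gap within the spread, and fibroblasts at 5470 ± 496. mt-Nd6, which lies on the other strand of the mitochondrial chromosome from the rest of these genes (M:13552-14070), stood at 33.1 ± 16.6 in endothelial cells and 19.0 in T cells.

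Each class was then compared with the mean of the other classes, with UMIs summed per sample and class and the sample kept as a block (edgeR quasi-likelihood test, adjusted over 13410 genes). In smooth muscle cells 46 of 86 nuclear genes and 12 of 13 mt- genes were higher and 6 nuclear genes were lower, where 34.1% of all genes were higher and 27% lower. The median log2 fold change of the nuclear genes was 0.20, beside 0.015 over all genes. The rise covered 23 of 38 complex I genes, 5 of 8 complex III genes, 8 of 16 complex IV genes, 7 of 17 ATP synthase genes, 3 of 7 assembly factors and all 7 mitochondrial genes of complex I. Cox4i2 (1.49 ± 0.21 SE, adjusted p = 2.0e-08), Ndufa11, an accessory subunit of complex I (0.83 ± 0.087, adjusted p = 1.3e-12), and mt-Nd4l (0.72 ± 0.12) rose most. Cox8b, Cox7a1 and Cox6a2 fell by 0.86, 0.72 and 0.66 on the log2 scale, and these muscle forms are taken up below with the free RNA. Cox8b and Cox6a2 lost the call without the sample block. The split depended on scaling: with DESeq2, which put the median of all genes at -0.18, 36 nuclear genes were higher and 14 lower beside 25.7% and 38.8% of all genes. It also depended on the classes compared. With cardiomyocytes added and no 20% limit, an alternative chosen after seeing the data in which their levels enter the mean of the others, 24 nuclear genes were higher and 20 lower and 3 mt- genes higher, beside 34.5% and 26.8% of all genes.

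Fibroblasts showed the opposite direction. Of the 86 nuclear genes 47 were lower and 3 higher, and 12 of 13 mt- genes were lower, where 23.8% of all genes were lower and 29.5% higher. The median over the nuclear genes was -0.19, beside -0.0084 over all genes. ATP synthase fell in 13 of 17 genes, complex IV in 12 of 16, complex III in 6 of 8 and complex I in 15 of 38. Cox5a, a structural subunit of complex IV, fell by 0.70 ± 0.085 and Atp5sl by 0.66 ± 0.13. Cox7a1 fell by 0.60 ± 0.13 and lost the call without the sample block. The 3 that rose were Ndufa4l2 (1.05 ± 0.18), Cox6b2 (0.57 ± 0.10) and the assembly factor Ndufaf2 (0.22 ± 0.091, adjusted p = 0.037, lost under 5 alternatives). The count of 62 called genes was 24 without the sample block, 25 without the allowance for free RNA, 27 with cells thinned to 1000 UMIs, 40 with 3 markers asked and 40 without Control 3. With DESeq2 64 nuclear genes were lower and 3 higher. The share of all genes under DESeq2 is not given here, so a fall of the chain is not told from a general one.

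Endothelial cells were lower in 34 nuclear genes and higher in 5, and lower in 4 mt- genes, beside 21.9% of all genes lower and 26.1% higher. Complex I carried most of this, with 19 of 38 genes lower. Ndufa13 fell by 0.51 ± 0.077, Cox7b, the widely expressed form of subunit 7b, by 0.52 ± 0.070 and Cox6b2 by 1.01 ± 0.14. Ndufa8 rose by 0.70 ± 0.075 (adjusted p = 4.5e-12) and Ndufc2 by 0.61 ± 0.076, both accessory subunits of complex I. Cox8b was also called higher (0.75 ± 0.15), and it lost the call without the sample block and when cardiomyocytes joined the comparison. The count of 43 called genes was 22 without high-fat diet 1, 26 without high-fat diet 3, 24 with thinned cells and 27 without the allowance for free RNA. With cardiomyocytes added and no limit, 56 nuclear genes were lower and 4 higher and 11 mt- genes lower. These counts are given without the share of all genes, so a general shift is not told apart.

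B cells and T cells shared higher RNA levels of Atp5 genes. In B cells 11 of 17 Atp5 genes were higher and none lower, and in T cells 13 of 17 were higher and none lower. Both counts include Atp5sl, which is in this group by its symbol only. Over all nuclear genes B cells had 31 higher and 14 lower beside 29.7% and 33.7% of all genes, and T cells had 32 higher and 12 lower beside 27.5% and 32.3%. Complex I went both ways in the same cells, with 8 higher and 9 lower of 38 in B cells and 10 higher and 8 lower in T cells. Atp5sl led in B cells (1.85 ± 0.13, adjusted p = 2.5e-19), at 35.8, 35.7 and 34.5 CPM in Control and 34.2, 16.9 and 21.9 in high-fat diet, against 8.24 in fibroblasts. Ndufs8, an iron-sulfur core subunit of complex I, was also higher in B cells (0.73 ± 0.074), at 147 ± 14.3 CPM against 82.9 in fibroblasts, and so was Atp5g2, a gene for subunit c of the membrane ring (0.68 ± 0.077).

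Cox5a was the leading gene in T cells (0.91 ± 0.077, adjusted p = 8.6e-16). Its level there was 466, 330 and 351 CPM in Control and 426, 468 and 424 in high-fat diet, against 165 ± 25.4 in fibroblasts. Every T cell sample was above every fibroblast sample. Atp5sl (0.73 ± 0.17) and Atp5h, subunit d of the peripheral stalk (0.57 ± 0.068), followed. The mt- genes split the lymphocytes: 3 of 13 were higher in B cells and none lower, whereas 8 of 13 were lower in T cells and none higher. Whether B and T cells differ from each other in these counts was not tested. With cardiomyocytes added and no limit, the nuclear genes turned to 16 higher and 27 lower in B cells (31.7% and 34.1% of all genes) and 17 higher and 22 lower in T cells (29.97% and 32.2%). In that fit 2 mt- genes were lower in B cells and all 13 in T cells, and ATP synthase had 7 higher and 2 lower in B cells and 6 higher and 1 lower in T cells. In both, Ndufa4l2, Cox4i2 and Cox6b2 were the genes that fell most, with log2 fold changes of -1.96, -1.65 and -1.4998 in B cells and of -1.91, -2.15 and -1.61 in T cells, where Cox4i2 lost the call with thinned cells.

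Macrophages paired high mitochondrial genes with an even split of nuclear ones. Of 13 mt- genes 11 were higher and none lower, and of 86 nuclear genes 15 were higher and 15 lower, where 29.8% of all genes were higher and 27.5% lower. mt-Co1 rose by 0.59 ± 0.075 (adjusted p = 4.6e-10), and all 3 mitochondrial genes of complex IV were higher. Complex I fell in 10 of 38 nuclear genes and rose in 4. Ndufa4l2 fell by 1.27 ± 0.25, Cox4i2 by 0.88 ± 0.30 and Ndufaf3 by 0.47 ± 0.10. Cox4i2 lost the call with thinned cells and without the allowance for free RNA. Cox6a2 and Cox7a1 were called higher at 0.71 ± 0.12 and 0.62 ± 0.13, and lost the call when cardiomyocytes joined the comparison, Cox6a2 also without the sample block. The count of 41 called genes was 17 without the sample block and 27 without Control 2. With cardiomyocytes added, the even split was gone. Without the limit 46 nuclear genes were lower and none higher and 1 mt- gene higher, beside 28.1% and 31.5% of all genes. With the limit 40 nuclear genes were lower and none higher and 9 mt- genes higher, a count given without the share of all genes.

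The smaller classes showed more mixed patterns. In Schwann cells 23 nuclear genes were lower and 4 higher beside 12.6% and 13.2% of all genes, and 10 of 17 ATP synthase genes were lower and none higher. Atp5g2 fell by 0.79 ± 0.10, Uqcrh by 0.67 ± 0.089 and Ndufa3, an accessory subunit of complex I, by 0.66 ± 0.081. Ndufb4 rose by 0.43 ± 0.083 and lost the call with thinned cells and in both fits with cardiomyocytes added. Ndufab1, the mitochondrial acyl carrier protein (0.38 ± 0.10), and Ndufb8 (0.28 ± 0.11, adjusted p = 0.046) were called higher, and lost the call under 7 and 12 alternatives. In mesothelial cells 13 nuclear genes were higher and 9 lower beside 24% and 20.5%, with 10 of 38 complex I genes higher. Ndufa1 rose by 0.65 ± 0.091 and Ndufv1, the core subunit that takes electrons from NADH, by 0.45 ± 0.11, a call lost with cardiomyocytes added. Ndufa4l2, Cox4i2 and Cox8b fell by 1.88, 1.85 and 0.91, each lost with thinned cells and Cox8b also without the sample block. The mesothelial count of 27 called genes was 14 with thinned cells, 15 without the sample block, 16 without Control 2 and 43 with DESeq2. With cardiomyocytes added and no limit, 3 nuclear genes were higher and 33 lower and 12 mt- genes lower in mesothelial cells, and 48 nuclear and 11 mt- genes were lower and none higher in Schwann cells. For both classes the share of all genes in that fit is not given here, so a general shift is not told apart.

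Erythroid cells had 17 nuclear genes higher and 1 lower and all 13 mt- genes higher, beside 13% of all genes higher and 3.27% lower. This direction is opposite to their low shares. The 8 erythroid markers, mainly haemoglobin genes, took 454300 to 717000 CPM in these cells, and their part in the difference was not tested. With cardiomyocytes added and no limit, 3 nuclear genes were higher and 23 lower and 8 mt- genes higher, beside 11.3% and 4.72% of all genes, so the nuclear direction depended on the classes compared. The 3 leading genes were Cox8b (1.69 ± 0.22), Cox6a2 (1.51 ± 0.18) and Cox7a1 (1.12 ± 0.21). Cox6a2 lost the call under 2 alternatives and Cox7a1 under 4. Atp5s, coupling factor B, fell by 1.66 ± 0.60 (adjusted p = 0.046, lost under 8 alternatives). The erythroid count of 31 called genes was 19 without high-fat diet 1, 19 without high-fat diet 3 and 17 with thinned cells.

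**Figure D2:**
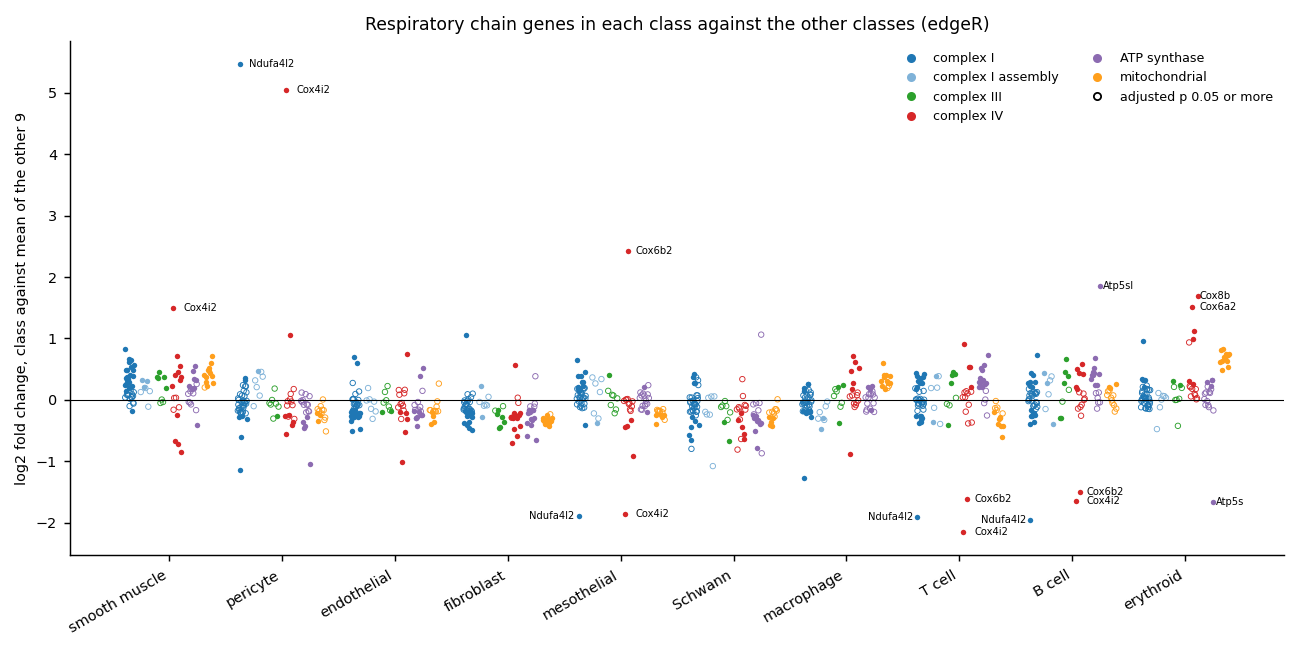
Log2 fold change of the 99 tested genes in each class against the mean of the other classes, by complex. Filled points have an adjusted p under 0.05 in the edgeR test and open points do not. Pericytes hold the widest values, with Ndufa4l2 at 5.47 and Cox4i2 at 5.05, while most genes of every complex lie near 0.

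Pericytes, the mural cells of small vessels, were set apart by a pair of paralogs more than by the chain as a whole. Of 86 nuclear genes 6 were higher and 16 lower beside 12.4% and 9.26% of all genes. Ndufa4l2 (ENSMUSG00000040280, mm10 chr10:127514967-127517154, plus strand) was higher by 5.47 ± 0.17 (adjusted p = 4.4e-31) and Cox4i2 (ENSMUSG00000009876, chr2:152754173-152765037, plus strand) by 5.05 ± 0.23 (adjusted p = 5.8e-24). Ndufa4l2 had 962, 974 and 1446 CPM under Control and 939, 875 and 1452 in high-fat diet. The next class, fibroblasts, had 60.1 ± 8.89 CPM with a highest sample of 72.7. Every pericyte sample was therefore more than 10 times above any fibroblast sample, and the diets overlapped. Cox4i2 was at 393, 429 and 792 CPM in the Control samples and 361, 340 and 622 in high-fat diet. Smooth muscle cells, the next class, had 45.2 ± 12.04 with a highest sample of 64.4. Replicate 3 of each diet was highest for both genes.

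The partner genes moved apart. Ndufa4 (chr6:11900292-11907497, minus strand) was lower in pericytes by 1.14 ± 0.11 (adjusted p = 1.3e-12), at 365, 301 and 232 CPM in Control and 255, 373 and 166 in high-fat diet. Smooth muscle cells had 655 ± 34.9, endothelial cells 549 ± 25.5 and mesothelial cells 678, and no pericyte sample reached the mean of any of these. Ndufa4l2 therefore gave 72.5%, 76.4% and 86.2% of the UMIs of this pair in Control pericytes and 78.7%, 70.1% and 89.7% in high-fat diet, and no class other than pericytes exceeded a mean of 11.6%. Cox4i1 (chr8:120668222-120674207, plus strand) stayed at 1035 ± 149 CPM in pericytes, and Cox4i2 gave 31.8% ± 9.48 of the UMIs of its pair, beside 3.67% ± 0.678 in smooth muscle cells. Atp5sl (-1.05 ± 0.36, adjusted p = 0.032, lost under 6 alternatives) and Ndufa9 (-0.60 ± 0.16) were the other genes that fell most, and Cox6b2 rose by 1.06 ± 0.20. Ndufa9 lost the call with 3 markers asked and with thinned cells, and Cox6b2 with thinned cells.

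The gated cells carried pericyte markers at 7617 to 14393 CPM summed over 8 genes. Smooth muscle markers in the same cells ranged from 2204 to 12067 CPM, endothelial markers from 157 to 444 and fibroblast markers from 287 to 1271, and their part in the result was not tested. Per cell, after thinning to 1000 UMIs, Ndufa4l2 had a UMI in 237 of 380 pericytes (62.2% ± 8.85 over samples) and Cox4i2 in 130 (34.0% ± 9.76). In T cells, which should lack both, 1.24% and 0.487% of cells had one. The median depth was 3386 UMIs in pericytes and 3482 in T cells. Unthinned, 85.8% of pericytes had a UMI of Ndufa4l2 and 62.6% one of Cox4i2. The pericyte count of 25 called genes was 38 with 3 markers asked and 40 without the allowance for free RNA. With cardiomyocytes added and no limit, 54 nuclear genes were lower and 3 higher and 10 mt- genes lower. As no share of all genes stands beside these counts, a general shift is not told apart.

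Cox6b2 marked mesothelial cells, the lining of the outer surfaces of organs (2.42 ± 0.11, adjusted p = 1.4e-27). Its level was 113, 122 and 123 CPM in Control and 83.8, 103 and 85.9 in high-fat diet. Every mesothelial sample was above every sample of pericytes (48.0 ± 17.5), fibroblasts (31.1 ± 3.88) and T cells (6.92). Cox6b2 gave 16.21%, 16.03% and 15.54% of the UMIs of the Cox6b pair in Control mesothelial cells and 12.5%, 12.4% and 13.6% in high-fat diet, while Cox6b1 stood at 626 ± 66.9 CPM. The diets did not overlap in either measure, and the test between diets did not call the gene (-0.43 ± 0.17, adjusted p = 0.47). After thinning, 77 of 801 mesothelial cells had a UMI of Cox6b2 (8.64% ± 3.94) beside 0.506% of T cells, and unthinned it was 34.8%.

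**Figure D3:**
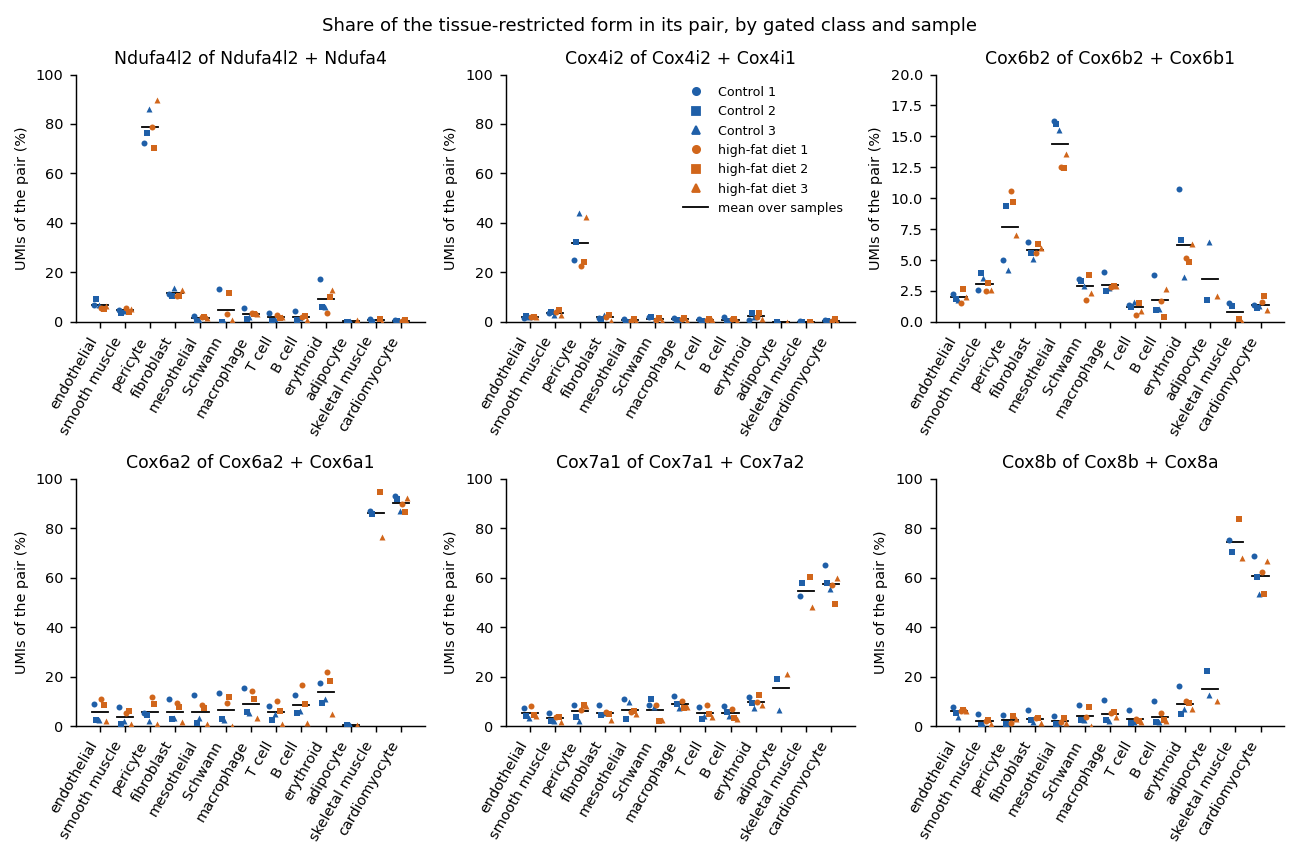
Percent of the UMIs of each paralog pair that came from the restricted form, by cell class. Points are samples (blue Control, orange high-fat diet) and bars are means. Ndufa4l2 stands at 78.9% and Cox4i2 at 31.8% in pericytes, Cox6b2 at 14.4% in mesothelial cells on an axis that ends at 20%, and Cox6a2, Cox7a1 and Cox8b stand at 90.0%, 57.5% and 60.8% in cardiomyocytes.

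Cardiomyocytes, the contractile cells of the heart, carried the strongest rise of the whole chain. Without the 20% limit there were 521 of them, 25 to 193 per sample, and 80 of 86 nuclear genes were higher than the mean of the other classes and 1 lower, beside 13% and 17% of 12381 genes. The median over the nuclear genes was 1.89 and over the 13 mt- genes, all higher, 2.45. ATP synthase rose in 17 of 17 genes, complex III in 8 of 8, complex I in 37 of 38, complex IV in 13 of 16 and the assembly factors in 5 of 7. Apart from the muscle forms, Atp5g1, which encodes subunit c of the ring (3.22 ± 0.072), Cox5a (2.94 ± 0.070) and Uqcrfs1, the Rieske iron-sulfur protein (2.87 ± 0.085), rose most. Atp5g1 had 3517, 2728 and 2036 CPM under Control and 2755, 1922 and 3242 in high-fat diet. The gene that fell was Cox6a1, the partner of Cox6a2 (-0.56 ± 0.083), at 287 ± 32.6 CPM.

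The muscle forms exceeded the rest. Cox6a2 (chr7:128205435-128206387, minus strand) was higher by 6.94 ± 0.15, Cox7a1 (chr7:30184144-30186078, plus strand) by 6.16 ± 0.11 and Cox8b (chr7:140898945-140900446, minus strand) by 5.84 ± 0.14. Cox6a2 stood at 3304, 3117 and 2268 CPM in Control cardiomyocytes and 2337, 1948 and 3324 in high-fat diet. Cox7a1 was at 2254, 1940 and 1467 CPM in the Control samples and 1711, 1133 and 2168 in high-fat diet. Cox8b had 1598, 1280 and 913 CPM under Control and 1140, 723 and 1239 in high-fat diet. For all 3 genes the diets overlapped. Cox6a2 gave 90.0% ± 2.76 of its pair, Cox7a1 57.5% ± 5.22 and Cox8b 60.8% ± 6.39, so Cox7a2 and Cox8a still gave a large part. Skeletal muscle cells, with enough cells in 4 samples, had 86.0% ± 7.45, 54.8% ± 5.31 and 74.3% ± 6.98. Adipocytes, in 3 samples, had 14.9% ± 6.41 for Cox8b and 15.6% ± 7.76 for Cox7a1 but 0.457% for Cox6a2. Cox4i2 and Ndufa4l2 gave 0.434% and 0.429% of their pairs in cardiomyocytes.

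The 3 muscle genes were also counted in the other classes, and are given beside the cardiac markers. Cox6a2 in endothelial cells was 48.7, 16.7 and 15.0 CPM in Control and 61.9, 48.0 and 10.8 in high-fat diet. The 8 cardiac markers, genes of heart muscle, summed there to 603, 227 and 323 CPM in Control and 1267, 965 and 60.4 in high-fat diet. Cox6a2 amounted to 5.66% ± 1.51 of the cardiac marker sum in cardiomyocytes and to means of 3.57% to 8.59% in the 10 other classes tested, and to 103% in skeletal muscle cells. Single samples spread wider, from 4.66% to 17.8% in endothelial cells, 4.98% to 17.7% in macrophages and 0% to 11.2% in Schwann cells. Cox8b varied more against that sum in endothelial cells, at 58.8, 47.3 and 29.4 CPM in Control and 41.1, 41.4 and 38.0 in high-fat diet, which made 3.24% to 62.8% of it. Over the 10 classes the means were 2.83% to 18.3% for Cox8b and 3.52% to 14.7% for Cox7a1, against 2.64% and 4.31% in cardiomyocytes. The skeletal markers in endothelial cells reached 2418 CPM in Control 1 and 25.9 to 425 in the other samples. The rises of Cox6a2, Cox7a1 and Cox8b in erythroid cells, macrophages and endothelial cells stand beside these sums, and the part of free RNA in them was not tested.

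The start regions of 3 pairs are printed because their restricted and wide forms differ in how many CG pairs they hold, so that difference is a description of chosen examples. Each line gives the 250 bases before the RefSeq start (GRCm38.p6), 5′ to 3′ on the gene's strand, with CG in capitals.
Cox7a1: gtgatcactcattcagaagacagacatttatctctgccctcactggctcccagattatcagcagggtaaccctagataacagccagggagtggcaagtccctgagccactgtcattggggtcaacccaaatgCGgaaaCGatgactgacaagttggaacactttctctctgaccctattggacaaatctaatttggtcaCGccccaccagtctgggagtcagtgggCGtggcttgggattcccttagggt
Cox7a2: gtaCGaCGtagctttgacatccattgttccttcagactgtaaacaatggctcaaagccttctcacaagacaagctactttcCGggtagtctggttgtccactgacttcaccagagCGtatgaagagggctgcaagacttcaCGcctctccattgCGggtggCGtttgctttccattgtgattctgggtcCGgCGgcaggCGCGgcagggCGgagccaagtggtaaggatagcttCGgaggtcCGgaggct
Cox8b: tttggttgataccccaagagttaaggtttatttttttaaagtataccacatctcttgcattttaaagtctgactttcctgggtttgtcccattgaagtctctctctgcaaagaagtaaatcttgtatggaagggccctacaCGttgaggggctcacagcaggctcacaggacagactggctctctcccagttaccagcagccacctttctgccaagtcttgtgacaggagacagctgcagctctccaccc
Cox8a: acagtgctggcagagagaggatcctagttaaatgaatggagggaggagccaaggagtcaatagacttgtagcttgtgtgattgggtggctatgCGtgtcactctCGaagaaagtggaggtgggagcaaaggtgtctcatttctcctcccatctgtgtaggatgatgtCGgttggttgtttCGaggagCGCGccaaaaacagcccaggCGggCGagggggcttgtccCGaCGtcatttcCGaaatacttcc
Cox6b2: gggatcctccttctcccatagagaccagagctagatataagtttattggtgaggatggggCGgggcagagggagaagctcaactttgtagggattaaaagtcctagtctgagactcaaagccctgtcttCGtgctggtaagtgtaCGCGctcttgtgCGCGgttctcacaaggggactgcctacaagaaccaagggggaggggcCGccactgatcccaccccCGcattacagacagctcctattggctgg
Cox6b1: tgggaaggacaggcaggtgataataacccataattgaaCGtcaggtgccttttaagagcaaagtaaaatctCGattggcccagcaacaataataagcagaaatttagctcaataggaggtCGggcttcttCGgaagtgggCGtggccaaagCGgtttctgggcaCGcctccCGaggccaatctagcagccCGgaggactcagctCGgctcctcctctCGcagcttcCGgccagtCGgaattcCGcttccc

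Cox7a1 (chr7:30183921-30184170) held 4 CG and its partner Cox7a2 (chr9:79759854-79760103) 14. Cox8b (chr7:140900447-140900696) held 1 and Cox8a (chr19:7217617-7217866) 11. Cox6b2 (chr7:4753095-4753344) held 8 and Cox6b1 (chr7:30626115-30626364) 14. The fourth pair matched went the other way, with a ratio of observed to expected CG of 0.564 for Cox7b2 and 0.368 for Cox7b in the window from 250 bases before to 50 after the start. RefSeq start regions, from 250 bases before to 50 after the start, were matched for 73 of the 88 nuclear genes. Their median ratio of observed to expected CG was 0.829, beside 0.389 over 27025 start regions, and the ratio was 0.6 or more in 83.6% of them against 36.5% of all. The letters GCGCA followed at once by TGCGC, a palindrome known as the site of nuclear respiratory factor 1, were found in 9.59% of the 73 and 0.977% of all, namely in Ndufaf5, Ndufaf4, Atp5k, Cox6a1, Uqcrc1, Atp5g2 and Ndufa11. The letters CCGGAAG on either strand, part of the site of ETS factors such as GABP, were found in 19.2% and 9.12%. The matched restricted genes Cox7b2, Cox6b2, Cox7a1 and Cox8b held neither. A match is a description of letters in this window.

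What the 20% limit on mt- UMIs removes was asked next, because this limit is set on genes described here. It removed 1566 of 59608 cells (2.63%). Pooled over samples, cardiomyocytes lost 252 of 521 cells (48.4%, Wilson 95% interval 44.1% to 52.7%) and adipocytes 38 of 122 (31.1%, 23.6% to 39.8%). These intervals leave out the spread between samples, which ran from 20% to 64.7% in cardiomyocytes. Of the adipocytes, Control 2 lost 27 of 55, Control 3 lost 5 of 24 and high-fat diet 3 lost 4 of 29. Each other sample held 4 to 6 adipocytes. The loss was 21 of 191 epithelial cells, 6.41% of 234 skeletal muscle cells, 3.68% of 12271 smooth muscle cells, 3.50% of 2999 endothelial cells and 2.63% of 6681 macrophages. Fibroblasts lost 0.266% of 15441 cells and T cells 0.256% of 1953. Over pooled cells the loss was thus largest in heart muscle and fat among the classes counted, for fat mostly through Control 2. It was no higher than 3.68% in each of the 4 main classes of the vessel wall.

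The limit selects cells by their mt- share, so a fall of the mt- genes under it was fixed in advance. In cardiomyocytes the limit moved the median log2 fold change of the mitochondrial genes more than that of the nuclear ones. With it, high-fat diet 3 kept 12 cells, fewer than the 20 asked elsewhere, and that fit was run for comparison only. Without it, mt- genes took 9.96%, 27.0% and 22.7% of UMIs in Control and 24.9%, 36.2% and 30.8% in high-fat diet. With it, they took 4.05%, 9.16% and 5.05% in Control and 7.68%, 10.1% and 10.6% in high-fat diet. The median log2 fold change of mt- genes against the other classes went from 2.45 to 0.40, with 11 of 13 still higher, while that of nuclear genes went from 1.89 to 1.81, with 80 higher and 1 lower (10.6% and 9.85% of 12394 genes). The nuclear share of the summed UMIs was 10.9%, 11.2% and 8.21% in Control and 10.6%, 9.67% and 13% in high-fat diet without the limit, and 11.1%, 10.01% and 7.16% and 11.1%, 10.6% and 8.84% with it. The median cell moved more, from 12.3% to 4.94% in Control 2, from 6.78% to 4.10% in Control 3 and from 17.7% to 8.83% in high-fat diet 3, and was higher with the limit in the other 3 samples. mt-Co1 went from 2.67 ± 0.088 to 0.46 ± 0.090 and mt-Nd4l from 2.94 ± 0.14 to 0.43 ± 0.15, while Cox6a2 went from 6.94 to 6.49. mt-Co1 stood at 15542 to 55214 CPM over the 6 samples without the limit and at 5377 to 14066 with it.

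**Figure D4:**
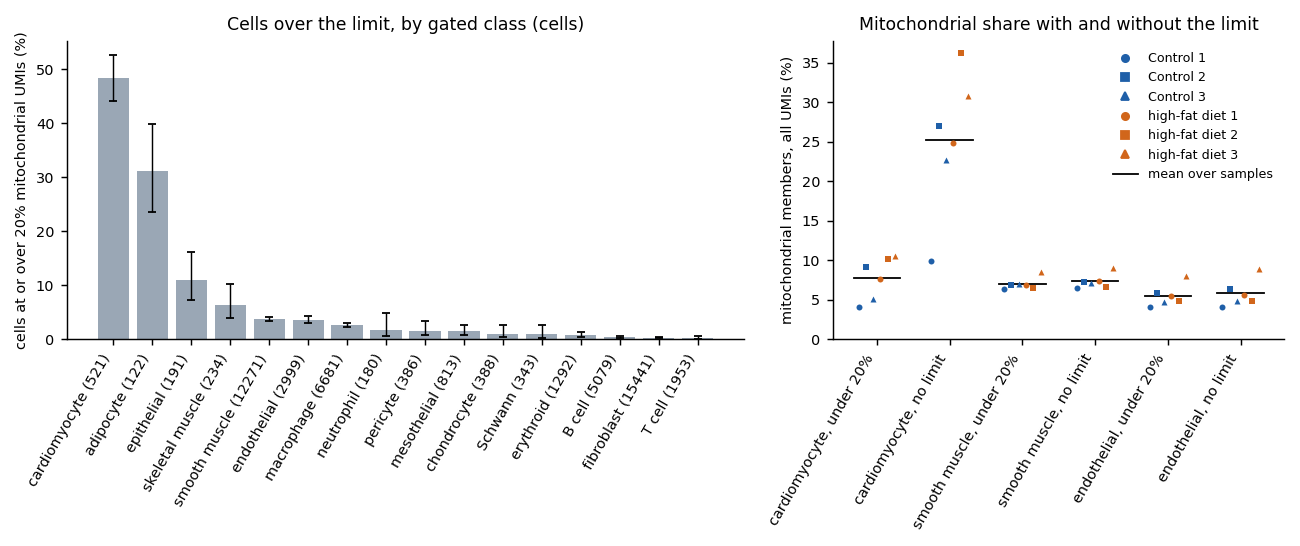
Left, percent of cells of each class, pooled over samples, at or above 20% mt- UMIs with Wilson 95% intervals and the number of cells in parentheses. Right, mt- share of UMIs in cardiomyocytes, smooth muscle cells and endothelial cells with and without the limit, points being samples. Cardiomyocytes lose 48.4% of their cells, and their mean share without the limit is 25.3%.

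A larger share of cells was over the limit in every high-fat diet sample than in any Control sample. The share was 1.033%, 2.339% and 1.496% in Control and 3.73%, 2.68% and 3.88% in high-fat diet (exact permutation test, p = 0.1, the smallest this design allows, adjusted p = 0.6 over the classes and all cells). Without the cells gated as muscle or fat it was 0.939%, 1.80% and 1.00% in Control and 2.91%, 2.26% and 3.59% in high-fat diet (exact permutation test, p = 0.1). In cardiomyocytes it was 20%, 51.7% and 41.6% in Control and 46.1%, 61.7% and 64.7% in high-fat diet, which overlapped (exact permutation test, p = 0.2). In endothelial cells it was 0%, 4.798% and 1.54% in Control and 1.16%, 0.839% and 8.34% in high-fat diet, so that 1 sample of each diet held most of the cells over the limit. Within classes the direction differed: high-fat diet minus Control was 2.44 percentage points in pericytes, 2.30 in smooth muscle cells and 2.18 in macrophages, but -0.17 in fibroblasts, -0.53 in erythroid cells, -1.29 in Schwann cells and -0.095 in T cells, and the diets overlapped in each of these classes.

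Whether diet moved the chain within a class was tested in 10 classes. No respiratory chain gene was called in any of them by the edgeR quasi-likelihood test. In endothelial cells, the class the study's title names, 52 of 10974 genes (0.474%) were called. The share of all genes called was 0.203% in Schwann cells, 0.15% in mesothelial cells, 0.089% in erythroid cells, 0.0428% in T cells and 0.0368% in fibroblasts, and no gene was called in smooth muscle cells, macrophages, B cells or pericytes. At an unadjusted p under 0.05 there were 1586 genes in endothelial cells, 1547 in fibroblasts, 1370 in smooth muscle cells, 1024 in B cells, 935 in macrophages and 253 in pericytes. DESeq2 called 1 of these genes, mt-Nd4l in endothelial cells (1.25, adjusted p = 0.000615), and none in the other classes. Without Control 1, edgeR called 7 genes lower and 1 higher in B cells and the same numbers in T cells, 8 lower in macrophages and 6 lower in endothelial cells, with 1090, 806, 366 and 477 genes called in all. For scale, the fits of all 6 samples tested 8667, 7008, 11058 and 10974 genes in these classes. Of these, 85, 79, 86 and 86 were nuclear genes of the chain and 13 in each class were mt- genes. Many other genes were called too, so these calls are not read as a result about the chain.

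Although no gene was called, nuclear and mitochondrial genes lay on opposite sides in endothelial cells. Of 86 nuclear genes 70 had a negative log2 fold change, with a median of -0.18, and all 13 mt- genes a positive one, with a median of 0.39, beside -0.0016 over all genes. Without overlap between the diets were 27 nuclear genes lower and 1 higher in high-fat diet, beside 10.5% and 10.1% of all genes, and 2 mt- genes higher. Atp5e, the epsilon subunit of ATP synthase, was at 702, 757 and 858 CPM in the Control samples and 608, 592 and 527 in high-fat diet, on the TMM scale of the fit (-0.42 ± 0.13, adjusted p = 0.18). Atp5g2 stood at 389, 494 and 486 CPM and at 365, 314 and 301 (-0.48 ± 0.14, adjusted p = 0.17). Ndufa7, an accessory subunit of complex I, stood at 398, 465 and 474 CPM and at 357, 366 and 321 (-0.36 ± 0.12, adjusted p = 0.24). For these 3 genes all high-fat diet samples were below all Control samples. Ndufaf1, an assembly factor of complex I, had 9.12, 10.9 and 10.7 CPM under Control and 15.3, 16.1 and 13.6 in high-fat diet (0.54 ± 0.22, adjusted p = 0.29), with all high-fat diet samples above. As a share of UMIs that are not mt-, the nuclear genes went from 2.58%, 2.74% and 2.63% in Control to 2.42%, 2.499% and 2.28% in high-fat diet (exact permutation test, p = 0.1, adjusted p = 0.5).

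Other classes showed nuclear genes on the same side. In macrophages 74 of 86 nuclear genes had a negative log2 fold change (median -0.18), and 20 were lower and 2 higher without overlap, beside 7.87% and 6.84% of all genes. Atp5e there was at 727, 941 and 950 CPM in the Control samples and 639, 633 and 626 in high-fat diet (-0.47 ± 0.15, adjusted p = 0.48). Uqcr10, a small subunit of complex III, stood at 406, 463 and 489 CPM and at 325, 358 and 322 (-0.43 ± 0.14, adjusted p = 0.45). Both genes were lower in every high-fat diet sample. In T cells 68 of 79 nuclear genes were negative (median -0.19), and 24 were lower and none higher without overlap, beside 7.36% and 8.98%. Atp5k, subunit e of ATP synthase, stood at 395, 425 and 400 CPM in Control T cells and 305, 313 and 293 in high-fat diet (-0.42 ± 0.14, adjusted p = 0.34).

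Fewer genes lay without overlap in the other classes. In smooth muscle cells 53 of 86 nuclear genes were negative (median -0.061), with 6 lower and 4 higher without overlap beside 8.98% and 7.86%. In fibroblasts 56 of 86 were negative (median -0.055), with 7 lower and 4 higher beside 8.67% and 9.62%. The assembly factor Ndufaf4 stood at 36.4, 32.5 and 34.7 CPM in Control fibroblasts and 42.3, 42.4 and 44.2 in high-fat diet (0.32 ± 0.097, adjusted p = 0.35), with no overlap. In smooth muscle cells Ndufaf4 was at 0.41 ± 0.19, and its diets overlapped. mt-Atp8 and mt-Co3, for subunit 8 of ATP synthase and subunit III of complex IV, came next in smooth muscle cells at 0.34 ± 0.15 and 0.32 ± 0.15 (adjusted p = 0.52 for each). B cells had 8 lower and 3 higher of 85, pericytes 8 lower and none higher of 78, mesothelial cells 9 lower and 3 higher of 83, erythroid cells 3 lower and 6 higher of 78, and Schwann cells 2 lower and 4 higher of 70. The corresponding shares of all genes lower and higher were 7.08% and 7.56%, 5.48% and 6.73%, 7.54% and 8.06%, 8.68% and 8.33%, and 7.08% and 6.88%.

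The cytosolic ribosome genes of the same fits also lay on the negative side, and so did the mitochondrial ribosome genes in some classes. No gene of these lists was called. Of the cytosolic ribosome genes, 77 of 78 were negative in endothelial cells (median -0.34), 77 of 79 in macrophages (-0.34), 77 of 78 in T cells (-0.73), 76 of 79 in smooth muscle cells (-0.21) and 75 of 80 in fibroblasts (-0.27). Of the mitochondrial ribosome genes, 59 of 76 were negative in endothelial cells (-0.10), 54 of 76 in macrophages (-0.11), 54 of 73 in T cells (-0.14), 41 of 77 in smooth muscle cells and 36 of 77 in fibroblasts (0.016). Other lists in endothelial cells went the other way. Glycolysis had 9 of 14 positive (0.21). Hypoxia-induced genes had 9 of 13 positive (0.20) and 2 called higher, beside 0.237% of all genes. The remaining lists there had medians from -0.072 to 0.028.

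The same few genes came first in several classes. Atp5g2 was among the 3 falling genes with the smallest p in endothelial cells, smooth muscle cells, B cells, T cells, erythroid cells and mesothelial cells, and Atp5e in endothelial cells, smooth muscle cells, macrophages and Schwann cells. These classes come from the same 6 samples and are not independent. Cox8a, the wide form of subunit 8, stood at 881, 946 and 987 CPM in Control mesothelial cells and 723, 737 and 637 in high-fat diet (-0.43 ± 0.14, adjusted p = 0.35), without overlap. By smallest p, the rising genes in Schwann cells were Ndufab1 (0.74 ± 0.26, adjusted p = 0.42), then mt-Nd4l, then Cox5a (0.65 ± 0.25, adjusted p = 0.47). Ndufa1 (-0.54 ± 0.23, adjusted p = 0.76) came first among the falling genes in pericytes. In erythroid cells Ndufa11 had 106, 85.2 and 96.1 CPM under Control and 152, 172 and 129 in high-fat diet (0.67 ± 0.24, adjusted p = 0.25), also without overlap. An edgeR test of whether the diet effect differs between the 4 main classes called none of 14313 genes, and 1 respiratory chain gene had an unadjusted p under 0.05 in it, Ndufaf1 in fibroblasts (-0.43). Its fit kept no sample block, although the class sums of each sample belong together. Over all genes, 457 were under 0.05 for endothelial cells, 243 for smooth muscle cells, 223 for fibroblasts and 491 for macrophages. The lack of calls therefore does not show that the classes share a diet effect.

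mt-Nd4l, a core subunit of complex I (M:9877-10173, overlapping mt-Nd4 by a few bases), was among the 3 rising genes with the smallest p in every class but smooth muscle cells. In endothelial cells it was at 253, 177 and 212 CPM in the Control samples and 493, 310 and 706 in high-fat diet (1.23 ± 0.30, adjusted p = 0.17). In pericytes it stood at 305, 180 and 191 CPM and at 481, 327 and 595 (1.03 ± 0.28, adjusted p = 0.41). In both classes every high-fat diet sample was above every Control sample. mt-Nd6 in endothelial cells stood at 28.4, 23.6 and 13.96 CPM and at 43.7, 28.7 and 60.2 (1.04 ± 0.33, adjusted p = 0.24), and in B cells it was at 1.18 ± 0.31 (adjusted p = 0.28).

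These mitochondrial values split by barcode set. In set 1 of the endothelial cells, mt-Nd4l was at 254, 112 and 247 CPM in Control and 776, 393 and 900 in high-fat diet. In set 2 it was at 301, 232 and 189 in Control and 138, 157 and 164 in high-fat diet, so the order of the diets turned around without overlap in either set. Fitted on set 2 alone, mt-Nd4l was at -0.68 in endothelial cells, -0.62 in fibroblasts and -0.58 in macrophages. In endothelial cells all 13 mt- genes were positive in set 1 (median 0.62) and 1 of 13 in set 2 (median -0.23). The nuclear genes kept their side, with 72 of 85 negative in set 1 (median -0.16) and 55 of 82 in set 2 (median -0.17). Atp5e kept the diets apart in both sets, at 744, 716 and 677 CPM in Control and 570, 626 and 520 in high-fat diet in set 1, and at 693, 729 and 856 and 652, 555 and 539 in set 2. Atp5g2 kept them apart in set 2 only. In set 1 it was at 350.4 CPM in Control 3 and 350.7 in high-fat diet 1. In macrophages the nuclear genes did not keep their side, with 30 of 85 negative in set 1 (median 0.048) and 69 of 85 in set 2 (median -0.27). Atp5e in macrophages overlapped between diets in set 1, at 792.5, 838.8 and 734.1 CPM in Control and 787.2, 744.8 and 691.1 in high-fat diet. It lay apart in set 2. Among the genes counted in both sets of endothelial cells, mt-Nd6 and mt-Nd4l had the largest median difference between sets of 92, at 1.22 and 1.18 on the log2 scale beside a median of 0.179. Control 3 had 634 of its 8620 cells in set 1.

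**Figure D5:**
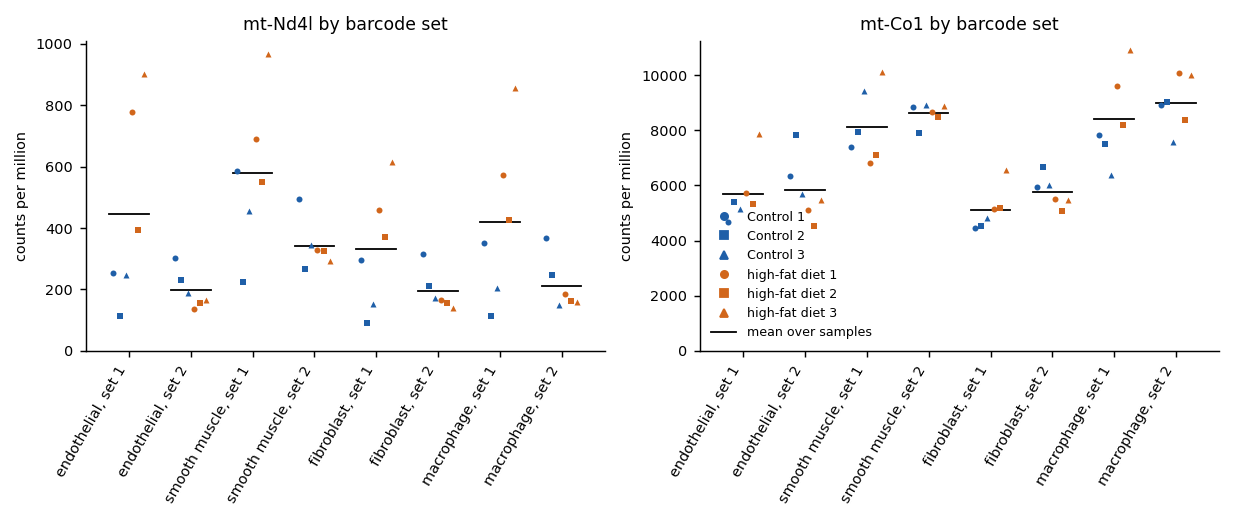
CPM of mt-Nd4l and mt-Co1 per sample in 4 classes, split by the 2 barcode sets that each deposited matrix joins. In endothelial cells the 3 high-fat diet samples of set 1 lie at 393 to 900 for mt-Nd4l and those of set 2 at 138 to 164.

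The difference in mt- share by diet turned around on set 2 alone in endothelial cells and fibroblasts. In macrophages and smooth muscle cells it kept its direction in each set. In endothelial cells it was 4.88% ± 0.852 in Control and 6.08% ± 1.72 in high-fat diet (n = 3 each, exact permutation test, p = 0.4), and on set 2 alone high-fat diet was lower. It went from 5.76% to 7.15% in macrophages (exact permutation test, p = 0.2), from 6.74% to 7.32% in smooth muscle cells (exact, p = 0.5) and from 4.34% to 4.96% in fibroblasts (exact, p = 0.3). In cardiomyocytes without the limit it went from 19.9% ± 8.86 to 30.6% ± 5.65 (exact, p = 0.2). With 3 against 3 samples the exact permutation test cannot go below p = 0.1, so none of these differences could pass 0.05 and the test does not decide on them. Without high-fat diet 3 the difference fell to 0.224 percentage points in endothelial cells, 0.255 in fibroblasts, 0.747 in macrophages and -0.0464 in smooth muscle cells. Pericytes were the only other class in which the nuclear share did not overlap between diets, at 2.96%, 2.86% and 2.96% in Control and 2.70%, 2.85% and 2.74% in high-fat diet (exact permutation test, p = 0.1, adjusted p = 0.5).

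Related mitochondrial and metabolic genes were counted in the same class comparison. In cardiomyocytes without the limit all 17 genes of the TCA cycle and complex II were higher (median 1.89), as were 49 of 76 genes of the mitochondrial ribosome (median 0.58), 11 of 16 glycolysis genes and 8 of 16 genes for cytochrome c and assembly of complex IV, beside a median of -0.20 over all genes. In pericytes, where Ndufa4l2 and Cox4i2 were high, 3 hypoxia-induced genes were higher and 3 lower of 14, and glycolysis had 2 higher and 1 lower of 16. In smooth muscle cells 10 of 16 glycolysis genes were higher and none lower, 7 of 14 hypoxia-induced genes were higher and 1 lower, and 8 of 17 TCA genes were higher and 1 lower. In endothelial cells 7 of 14 hypoxia-induced genes were higher and 1 lower, while 33 of 77 mitochondrial ribosome genes, 10 of 16 glycolysis genes and 6 of 17 TCA genes were lower. In fibroblasts 10 of 17 TCA genes and 10 of 16 glycolysis genes were lower. In B cells 46 of 77 mitochondrial ribosome genes were higher and 4 lower, and in T cells 35 and 5. Both had 77 of 80 cytosolic ribosome genes higher. The shares of all genes called in each class are those given above.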

How the data were processed

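UMI counts per gene and cell, deposited by the authors for 6 samples, were used as raw counts. Per the submitters' processing notes they were made with Cell Ranger 3.0 on mm10; the strand setting is not given in the sources used here. The members, gene lists and tests were chosen with earlier results of these data known, and the allowance for free RNA was set after the files were seen.

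Cells with at least 300 genes, under 20% mt- UMIs and a doublet score (scrublet in scanpy 1.11.5, expected rate 0.06) under 0.25 were kept. The doublet step left out 1371 of 59413 cells (2.31%). A marker was positive where its UMIs exceeded the 99th percentile of a Poisson distribution with 2 times the mean that cells of other classes of the same barcode set give at that depth, in 3 passes. A class, of 17 lists, needed 2 positive markers and more than any other list. Classes with 20 cells in each of the 6 samples were tested; cardiomyocytes met this only without the 20% limit, and their fit under it, with 12 cells in high-fat diet 3, was run for comparison.

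UMIs were summed per sample and class and tested with edgeR 4.0.16 in R 4.3.3 (TMM, filterByExpr, robust glmQLFit, glmQLFTest), with Benjamini-Hochberg adjustment over all genes tested and a threshold of 0.05. The fit over classes kept the sample as a block. The fits over diets had none, nor had the fit of the difference in diet effect between classes. Shares were compared by exact two-sided permutation tests in scipy 1.17.1, where 3 against 3 samples cannot go below p = 0.1. Thinned values use 1000 UMIs per cell. Intervals cover counting error only.

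Named were the restricted paralogs and their partners, 5 mt- genes, the gene of each group with the highest mean over classes, the 3 called genes that rose and fell most in each class, and the 3 with the smallest p in each direction between diets. On simulated counts, diet fits in endothelial cells, smooth muscle cells, fibroblasts and macrophages and the pericyte comparison recovered 55% to 84% of 2-fold and 97% to 98% of 4-fold changes. Each fit also called 9 to 21 genes that had not been changed. The changed genes were drawn above a minimum level, and changes smaller than 2-fold, like most diet differences given here, were not simulated. Replicate numbers did not pair the samples.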

Additional observations from a re-analysis of the deposited data

How the results depend on the processing

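For the class comparisons, the count of respiratory chain genes called moved by over 1.5 times under these alternatives. With cardiomyocytes added to the comparison, a choice made after seeing the data, it was 70 in endothelial cells, 53 in Schwann cells, 48 in mesothelial cells and 60 in pericytes under the 20% limit, and 71, 59, 48 and 67 without it. With any UMI of a marker counted, also chosen after seeing the data, it was 27 in endothelial cells, 19 in erythroid cells, 25 in fibroblasts and 40 in pericytes. With 3 markers asked it was 40 in fibroblasts and 38 in pericytes. With cells thinned to 1000 UMIs it was 24 in endothelial cells, 17 in erythroid cells, 27 in fibroblasts and 14 in mesothelial cells. Without the replicate block it was 24 in fibroblasts, 17 in macrophages and 15 in mesothelial cells, with mt- genes left out 17 in erythroid cells, and with DESeq2 43 in mesothelial cells. With 1 sample left out it ranged from 22 to 44 in endothelial cells, 19 to 28 in erythroid cells, 40 to 53 in fibroblasts, 27 to 37 in macrophages and 16 to 33 in mesothelial cells. The cause was not tested. Counting each named gene, class and alternative once, 636 log2 fold changes between classes kept direction and call, 54 lost the call, and 3 reversed: Atp5sl in fibroblasts with thinned cells (0.27), and Cox6a2 (-0.035) and Cox7a1 (-0.023) in macrophages with cardiomyocytes added and no limit. With 1 sample left out, 358 kept both and 14 lost the call.

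Between diets, 1 gene was called with DESeq2 in endothelial cells, and without the filter on low counts 1 in erythroid cells, 2 in mesothelial cells and 1 in pericytes. With 1 sample left out the count ranged from 0 to 8 in B cells, T cells and macrophages and from 0 to 6 in endothelial cells. The fit with a replicate block called 0 of these genes in every class, and the replicate numbers did not pair the samples: correlations of same-numbered samples ran from -0.311 to 0.376. On barcode set 2 alone the difference in mt- share was -0.477 percentage points in endothelial cells and -0.294 in fibroblasts, and on set 1 alone the difference in nuclear share was 0.0798 in smooth muscle cells, 0.05409 in fibroblasts and 0.156 in macrophages. With 1 sample left out the mt- difference ranged from -0.0464 to 0.985 in smooth muscle cells, 0.224 to 1.85 in endothelial cells, 0.255 to 0.923 in fibroblasts and 0.747 to 1.99 in macrophages, and the nuclear difference from -0.0596 to 0.0113 in fibroblasts. On set 2 alone the diet log2 fold changes of mt-Nd4l (endothelial cells -0.68, fibroblasts -0.62, macrophages -0.58), mt-Nd6 (endothelial cells -0.47, macrophages -0.8495) and mt-Atp8 (smooth muscle cells -0.32) reversed. Reads shared by mt-Nd4l and mt-Nd4, by mt-Atp8 and mt-Atp6, by mt-Nd6 and its opposite strand, by the Atp5g genes or by nuclear copies of mt- genes cannot be told apart in these counts.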
